A study of Mus musculus with 38 samples.

Results

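Astrocytes were examined in single-nuclei RNA-seq of the mouse cortex, in animals that had lost one or both alleles of Trim28 in the cells derived from Emx1-expressing cortical progenitors. A nucleus was taken as an astrocyte when its unique molecular identifiers (UMIs, the molecules counted after removal of PCR copies) over Gli3, Acsbg1, Slco1c1, Slc7a10 and Fgfr3 summed to at least 3 and exceeded its sums for excitatory neurons (Slc17a7 and Neurod6), inhibitory neurons (Gad1 and Gad2), oligodendrocytes (Mog, Mag, St18 and Prr5l), oligodendrocyte progenitors (Pdgfra, Vcan and Cspg4) and microglia (Inpp5d, Siglech, Runx1 and Ikzf1). This gave 1210 astrocytes among 14296 nuclei of 4 animals, or 8.46%. Animals 64 and 65 were Emx1-Cre +/-; Trim28-fl +/- and served as controls (Ctl), and animals 60 and 73 were Emx1-Cre +/-; Trim28-fl +/+ and are called Trim28-KO. By these labels both genotypes carried Cre, and the controls had 1 floxed and 1 intact Trim28 allele. A legend of the study calls the controls of the bulk cortex Cre-negative, and the labels were followed here. The fathers of the cross also carried gtRosa (+/-), whose state in the 4 offspring the labels do not give. All animals were 3 months old, and the nuclei were sorted and sequenced as 1 library per animal. Bulk RNA-seq of the cortex was available for the same 4 animals and for control 77 and Trim28-KO 76. Labels name separate animals but no litter, sex or preparation day, so the p-values measure the spread between these animals whatever its source. Whether individual astrocytes had lost TRIM28 cannot be read from these data.

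Astrocytes are the glia that take up glutamate and potassium released by neurons, supply lipids and metabolites, and contact synapses and blood vessels. TRIM28 (KAP1) is a co-repressor that KRAB zinc-finger proteins bring to DNA, where it recruits the methyltransferase SETDB1 and H3K9me3, a mark of silent chromatin. Its best known targets are endogenous retroviruses (ERVs), among them the ERVK group with the IAP and MMERVK10C families, and clusters of zinc-finger genes. Emx1-Cre is active in the progenitors of cortical excitatory neurons, astrocytes and oligodendrocytes, while cortical inhibitory neurons and microglia arise elsewhere.

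Control 64 gave 319 astrocytes (9.12% of its nuclei, exact 95% interval 8.19 to 10.1) and control 65 gave 218 (6.96%, 6.10 to 7.91). Trim28-KO 60 gave 342 (9.00%, 8.11 to 9.96) and Trim28-KO 73 gave 331 (8.55%, 7.69 to 9.48). The share was 8.04% ± 1.53 in controls and 8.78% ± 0.319 in Trim28-KO (SD, n = 2 each), and the groups overlapped. The difference of 0.732 percentage points had an exact two-sided permutation p of 1, where 0.333 is the smallest p that 2 against 2 animals allow. It reversed to -0.348 points without control 65. The astrocytes held 1401018 and 928534 UMIs in controls 64 and 65 and 1300425 and 1376990 in Trim28-KO 60 and 73, with medians of 3979, 3592, 3509 and 3584 UMIs per nucleus. Mitochondrial transcripts took 0.0993% and 0.137% of astrocyte UMIs in the controls against 0.267% and 0.119% in Trim28-KO, so that animal 60 stood highest. Pairs of libraries shared 0 to 20 barcodes, and no barcode was an astrocyte in more than 1 library. Intervals of shares cover counting error only.

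The label held up against markers that the rule did not use. Of 26 such astrocyte markers, 25 had their highest pooled level in these nuclei, with a median ratio of 8.59 to the next cell type. Slc1a2, the main glutamate transporter, stood at 6208 CPM (UMIs of the gene, scaled so that the UMIs of every cell type have the same total) against 436 CPM in excitatory neurons, the next highest type. Gja1, a gap junction protein, stood at 275 CPM against 10.2 in microglia, and the water channel gene Aqp4 at 154 CPM against 8.21 in oligodendrocyte progenitors. Cst3, a secreted protease inhibitor, was the exception, with 1308 CPM in astrocytes and 5598 CPM in microglia. These markers describe the chosen nuclei, and no test was applied. At the edge of the rule, 8, 8, 9 and 13 astrocytes of animals 64, 65, 60 and 73 had a sum of exactly 3, while 11, 11, 9 and 7 nuclei with a sum of 2 that also exceeded all other sums stayed outside. Slc1a2 was at 3504 CPM in the nuclei just inside and 2139 CPM in those just outside.

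**Figure D1:**
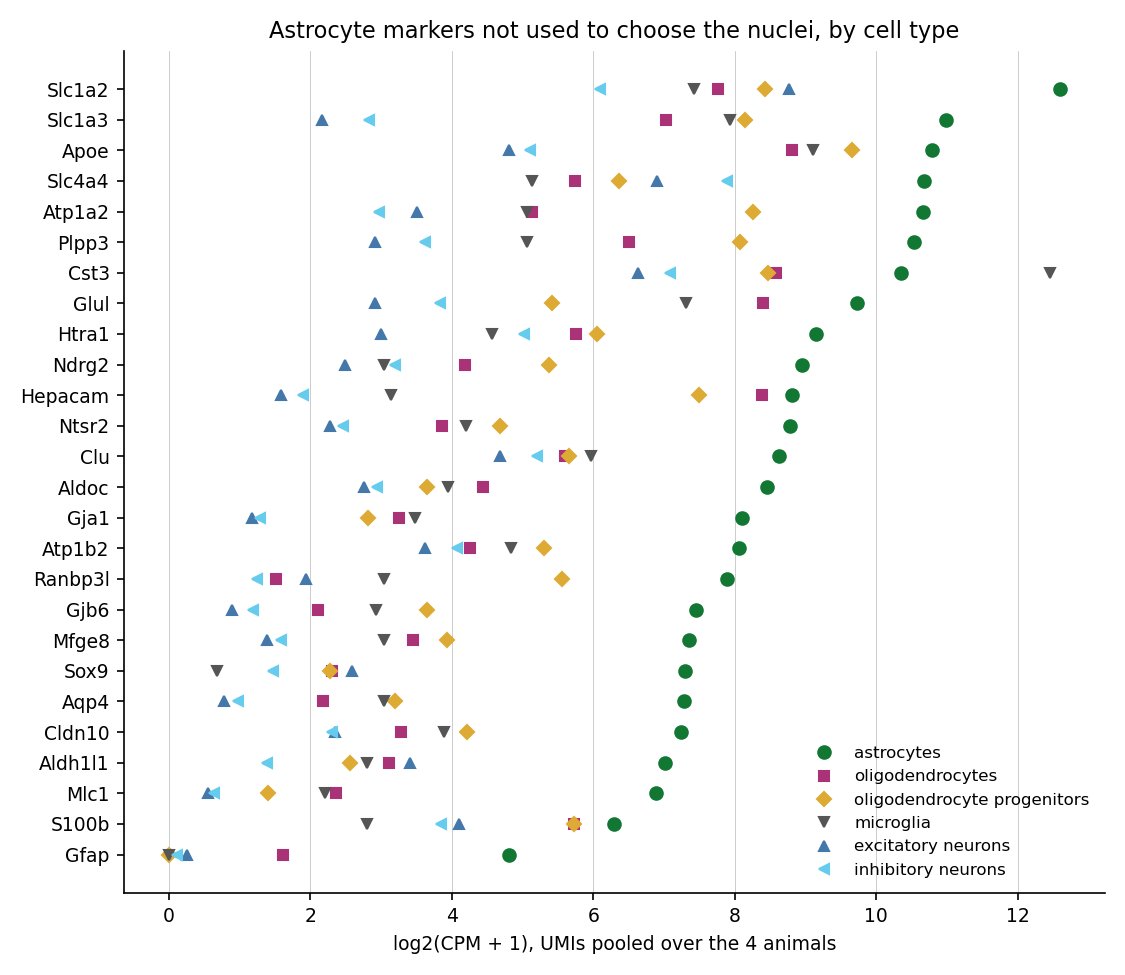
Pooled levels, log2(CPM + 1), of 26 astrocyte markers that did not enter the choice of nuclei, in astrocytes and in 5 other cell types (UMIs pooled over the 4 animals, no error shown). Astrocytes lie farthest to the right for 25 of the 26 markers, and Cst3 is higher in microglia.

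Transcripts of other cell types were also counted in these nuclei, and their part in the differences between genotypes was not tested. The 24 neuronal transcripts, led by Celf2 with 18.2% of their UMIs, summed to 7613 and 14524 CPM in controls 64 and 65 and to 7349 and 10880 CPM in Trim28-KO 60 and 73. Slc17a7, which marks excitatory neurons, had 77 and 74 UMIs in the controls and 68 and 87 in Trim28-KO. The 12 oligodendrocyte markers summed to 240 and 169 CPM in controls and 121 CPM in each Trim28-KO animal, so they were higher in both controls. The 10 endothelial and mural markers, led by Pdgfrb with 71.3%, summed to 186 and 146 CPM in controls and 115 and 108 CPM in Trim28-KO. The 3 genes of this list that were tested were lower in CPM in both Trim28-KO animals, as were 21.2% of all genes tested, and none passed. Slco1a4, a transporter of brain endothelium, had 29 and 9 UMIs in controls and 5 and 9 in Trim28-KO (log2 fold change -1.60 ± 0.53, adjusted p = 0.258, edgeR), while Cldn5, which defines endothelium, had 1 and 2 UMIs in controls and 2 and 1 in Trim28-KO. The 9 oligodendrocyte progenitor markers summed to 173 and 298 CPM in controls and 177 and 282 CPM in Trim28-KO. Pdgfra among them had 5 and 1 UMIs in controls and 1 in each Trim28-KO animal. The 10 microglial markers summed to 133 and 88.3 CPM in controls and 118 and 102 CPM in Trim28-KO, with Siglech at 4, 0, 0 and 1 UMIs in animals 64, 65, 60 and 73. The 5 fibroblast markers, led by Col1a1 with 63.9%, summed to 30.7 and 23.7 CPM in controls and 8.46 and 23.2 CPM in Trim28-KO, and 2 of the 4 ependymal markers had no UMI in any animal. None of the 37 genes of these lists that could be tested passed the test described below or DESeq2. In edgeR 8 of the 37 had an unadjusted p under 0.05, against 11.9% of all astrocyte genes tested. They were 3 of 20 neuronal, 3 of 5 oligodendrocyte and 2 of 3 endothelial and mural genes.

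Trim28 itself was too sparse in astrocytes to check the genotype. It had 6 and 9 UMIs in controls 64 and 65 and 8 UMIs in each Trim28-KO animal, and these reads come from the transcript end, so that they check the deletion only if it reaches there, which the sources used here do not state. In the bulk cortex Trim28 stood at 20.9, 18.98 and 21.4 CPM in controls 64, 65 and 77 and at 6.08, 8.53 and 8.88 CPM in Trim28-KO 60, 73 and 76. All Trim28-KO animals lay below all controls (log2 fold change -1.39 ± 0.15 SE, adjusted p = 0.000378, edgeR). In bulk tissue, fewer cells that express a gene and less of its RNA per cell cannot be told apart.

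UMIs were summed over the astrocytes of each animal, and the sums were compared between genotypes with edgeR's quasi-likelihood test, with p adjusted over all genes by the Benjamini-Hochberg method. Of 10825 genes tested, 116 (1.07%) passed an adjusted p of 0.05, of which 58 (0.536%) were higher and 58 (0.536%) lower in Trim28-KO. The Trim28-KO animals both lay on one side of both controls for 43.2% of all genes tested (22% higher, 21.2% lower). Among the genes that rose, 46 were protein-coding, 10 were lincRNAs and 1 was antisense, and among those that fell, 57 were protein-coding and 1 was antisense. DESeq2 called 62 genes, 31 in each direction. The count depended on single animals: 15 genes passed without Trim28-KO 60, 41 without Trim28-KO 73, 357 without control 65 and 1008 without control 64. All 116 kept their sign wherever they were tested. Of 15 alternative settings, 14 genes passed in every one, among them Unc13c, St6galnac5, Cdh4, Gfra1 and Map3k5, which fell, and Mnd1, Fbxw19, 2410018L13Rik, 2900052N01Rik, C230088H06Rik, Gm11884, Gm26573 and Gm26624, which rose. Of the 20 genes used to classify nuclei, 11 were tested and none passed.

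**Figure D2:**
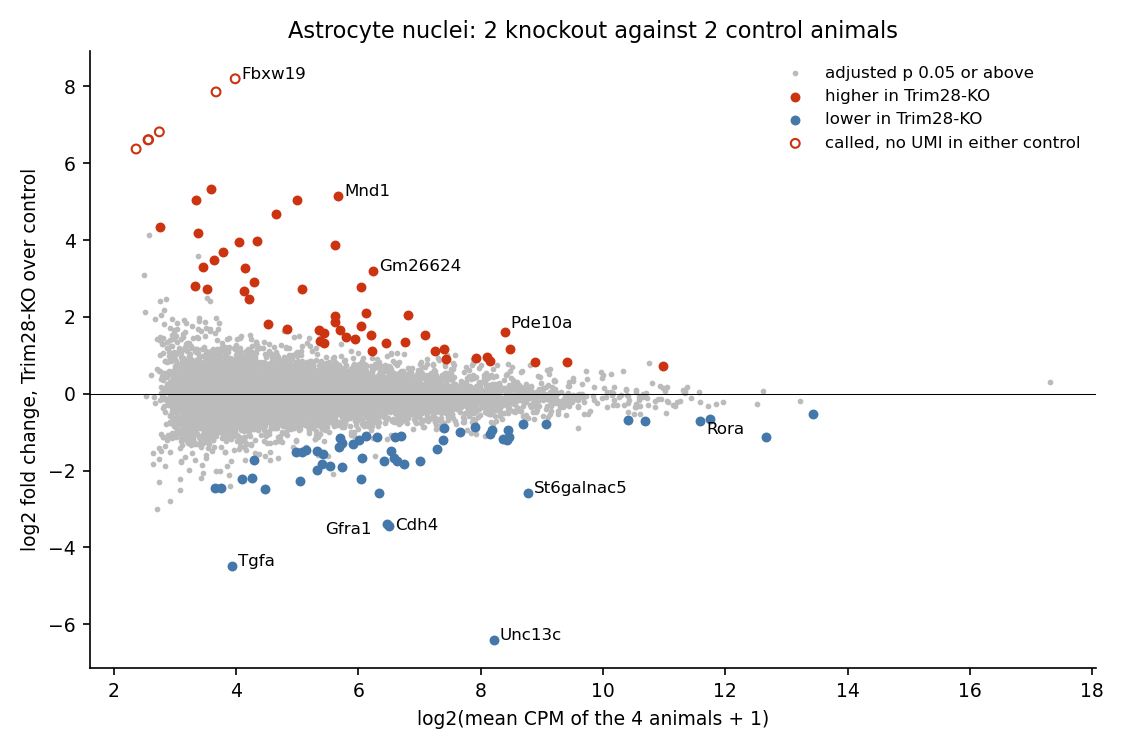
Log2 fold change in astrocytes (Trim28-KO over control, 2 animals each) against log2(mean CPM + 1) for the 10825 genes tested, with the 58 called increases and 58 called decreases in color. Unc13c at -6.40 lies far below all other genes, and the open circles at the upper left are genes without a UMI in either control, whose fitted value is not a bound.

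The largest decrease in astrocytes was that of Unc13c, which encodes a Munc13 protein of synaptic vesicle priming (chr9:73479422-73968966, minus strand, GRCm38). It had 828 and 519 UMIs in controls 64 and 65 and 12 and 6 UMIs in Trim28-KO 60 and 73, or 616 and 554 against 9.38 and 4.39 CPM after TMM scaling, the scale used for astrocyte levels from here on. Both Trim28-KO animals were far below both controls (log2 fold change -6.40 ± 0.27, adjusted p = 3.1e-06). After every nucleus had been thinned to 1000 UMIs, Unc13c was detected in 33.9% and 38.5% of control astrocytes, in 0 of 342 of Trim28-KO 60, which allows a share of up to 0.877% of nuclei with a UMI at that depth, and in 0.303% of 330 of Trim28-KO 73. Without thinning the shares were 70.5% and 72.9% in controls and 2.63% and 1.51% in Trim28-KO. Microglia, which arise outside the Emx1 lineage and serve here as a measure of free RNA, had a thinned share of 0.893% in control 64 and of 0 in the other animals, at median depths of 1991, 1793, 1495 and 1606 UMIs in animals 64, 65, 60 and 73. Without thinning the microglial share was 1.79% in control 64 and 0 in the other animals. Without Trim28-KO 60 the log2 fold change was -7.03.

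The next largest decreases included adhesion, receptor and channel genes, and their calls held in all alternatives for St6galnac5, Cdh4, Gfra1 and Map3k5. St6galnac5, a sialyltransferase of ganglioside synthesis, had 1022 and 691 UMIs in controls and 171 and 162 in Trim28-KO (-2.57 ± 0.16, adjusted p = 5.82e-05). Cdh4, which encodes R-cadherin, had 222 and 154 UMIs in controls and 17 and 23 in Trim28-KO (-3.44 ± 0.22, adjusted p = 6.75e-05), and fell further, to -4.14, when nuclei with more than 1 UMI of another type's sum were left out, and to -4.18 without nuclei above 3 times the median UMI count. Gfra1, the co-receptor of GDNF, had 234 and 135 UMIs in controls and 22 and 18 in Trim28-KO (-3.39 ± 0.24, adjusted p = 0.000113). In these genes the Trim28-KO animals were close to each other and well below the lower control. Map3k5, the stress-activated kinase ASK1, had 155 and 92 UMIs in controls and 33 and 28 in Trim28-KO (-2.21 ± 0.23, adjusted p = 0.00148). Kcnk2, the background potassium channel TREK-1, had 233 and 92 UMIs in controls and 28 and 33 in Trim28-KO (-2.57 ± 0.29, adjusted p = 0.00261). The controls differed more from each other than the Trim28-KO animals did, and the call was lost without Trim28-KO 60 (log2 fold change -2.50, adjusted p = 0.0843). Without nuclei of more than 1 UMI of another type's sum the log2 fold change of Kcnk2 was -3.18.

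Tgfa, a ligand of the EGF receptor, had 35 and 27 UMIs in controls and 2 and 1 in Trim28-KO, a ratio of 24.0-fold lower with a counting interval from 7.83 to 119 (adjusted p = 0.00333). None of the calls of the remaining genes among the 12 largest decreases held in all alternatives. Celsr1, an adhesion receptor of planar cell polarity, had 48 and 34 UMIs in controls and 9 and 8 in Trim28-KO (-2.47 ± 0.34, adjusted p = 0.00841). The endothelin receptor gene Ednra had 27 and 21 UMIs in controls and 4 and 6 in Trim28-KO (-2.45 ± 0.44, adjusted p = 0.0297). That the groups did not overlap in either gene follows from the choice of the 12. Adamts9, a secreted metalloprotease, had 60 and 58 UMIs in controls and 9 and 20 in Trim28-KO (-2.26 ± 0.36, adjusted p = 0.0163), with -1.84 without Trim28-KO 60 and -2.89 without Trim28-KO 73. Creb5, a transcription factor of the CREB family, had 37 and 24 UMIs in controls and 7 and 8 in Trim28-KO (-2.21 ± 0.38, adjusted p = 0.0221). Gm10600 had 20 and 23 UMIs in controls and 4 and 5 in Trim28-KO (-2.46 ± 0.50, adjusted p = 0.0496), the closest of the 12 to the threshold, with -3.23 without nuclei of more than 1 UMI of another type's sum and -3.36 without those above 3 times the median UMI count. Without Trim28-KO 60 the calls of Tgfa (adjusted p = 0.0611), Celsr1 (0.14), Ednra (0.474), Adamts9 (0.30), Creb5 (0.351) and Gm10600 (0.575) were lost, and without Trim28-KO 73 those of Celsr1 (0.0748), Ednra (0.154), Creb5 (0.154) and Gm10600 (0.27). DESeq2 did not call Ednra (0.239), Creb5 (0.182) or Gm10600 (0.307). The call of Gm10600 was also lost without control 65 (0.0939), with RLE factors (0.0516), with library totals alone (0.0757), without barcodes shared between libraries (0.0501) and without nuclei of more than 1 endothelial or mural UMI (0.114).

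**Figure D3:**
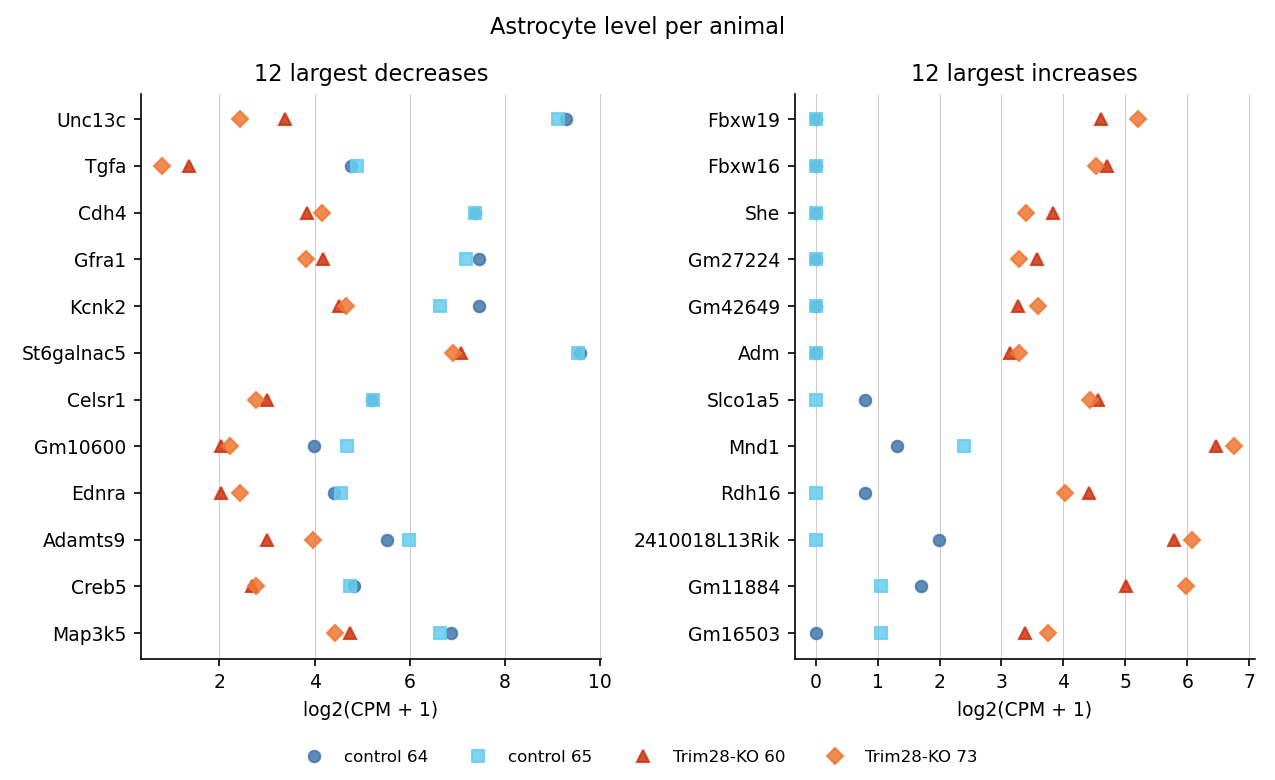
Astrocyte level, log2(CPM + 1) after TMM scaling, of the 12 largest called decreases and the 12 largest called increases by fitted fold change, with 1 point per animal. For increases without a UMI in either control this fold is not a bound, so their place among the 12 is uncertain. The genes were chosen as called changes whose groups did not overlap, so the separation of the genotypes in each of them follows from the choice.

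Ordered by fitted fold change, the increases were led by genes that the control astrocytes did not detect or nearly so. Where no control UMI was counted the fitted fold is not a bound, so the place of such a gene in this order is uncertain. Fbxw19 and Fbxw16, neighbouring F-box genes on chromosome 9, had no UMI in either control. Fbxw19 had 30 and 49 UMIs in Trim28-KO 60 and 73, at least 22.7-fold higher when the 2 controls together are set to 3 UMIs (adjusted p = 0.00431). Fbxw16 had 32 and 30 UMIs, at least 17.8-fold higher (adjusted p = 0.00472). Both Trim28-KO animals held at least 30 UMIs of each gene. She, an SH2 adaptor gene, had 0 and 0 UMIs in controls and 17 and 13 in Trim28-KO (at least 8.62-fold, adjusted p = 0.0269). Adm, which encodes the vasodilating peptide adrenomedullin, had 0 and 0 UMIs in controls and 10 and 12 in Trim28-KO (at least 6.32-fold, adjusted p = 0.041). The unnamed transcripts Gm27224 (14 and 12 UMIs) and Gm42649 (11 and 15 UMIs) were also absent from the control counts and at least 7.47-fold higher in Trim28-KO (adjusted p = 0.0316 each). DESeq2 gave no adjusted p for Gm27224, Gm42649 and Adm and 0.0773 for She. Of the 15 alternatives, 10 held Adm, 11 Gm42649, 13 Gm27224 and 14 She, since the genes were too sparse in the others. She, Adm and Gm27224 were not tested without Trim28-KO 60, nor were Adm, Gm27224 and Gm42649 without Trim28-KO 73. The calls of Fbxw16 (adjusted p = 0.118) and Gm42649 (0.495) were lost without Trim28-KO 60, that of She without Trim28-KO 73 (0.209), and that of Adm without control 64 (0.058) or control 65 (0.0536) or with library totals alone (0.0623).

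Mnd1, a protein of meiotic recombination (chr3:84087933-84155786, minus strand), had 2 and 4 UMIs in controls 64 and 65 and 112 and 146 in Trim28-KO 60 and 73. Both Trim28-KO animals were far above the controls (5.15 ± 0.38, adjusted p = 0.000146). Thinned to 1000 UMIs, Mnd1 was detected in 0.313% and 0.917% of control astrocytes and in 6.14% and 8.79% of Trim28-KO astrocytes (0.627%, 1.38%, 18.4% and 20.2% without thinning). Its log2 fold change was 4.47 without control 64 and 5.95 without control 65. 2410018L13Rik had 4 and 0 UMIs in controls and 69 and 91 in Trim28-KO (5.03 ± 0.52, adjusted p = 0.00151, and 4.30 without control 65), and without control 64 the remaining control has no UMI, so that the fitted fold rises and is no bound. Gm11884 had 3 and 1 UMIs in controls and 40 and 85 in Trim28-KO (4.67 ± 0.58, adjusted p = 0.00431, 5.33 without control 64). For these 2 uncharacterised genes the fold rests on few control UMIs, and the 2 Trim28-KO animals differed most for Gm11884.

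Slco1a5, an organic anion transporter, had 1 and 0 UMIs in controls and 29 and 28 in Trim28-KO, a ratio of 49.1-fold with a counting interval from 8.47 to 1975 (adjusted p = 0.00652). Rdh16, a retinol dehydrogenase, had 1 and 0 UMIs in controls and 26 and 21 in Trim28-KO (40.5-fold, 6.93 to 1634, adjusted p = 0.0119). Gm16503 had 0 and 1 UMIs in controls and 12 and 17 in Trim28-KO (25-fold, 4.15 to 1021, adjusted p = 0.0464). The fitted log2 fold changes of Slco1a5, Rdh16 and Gm16503 were 5.33, 5.05 and 4.35. Without control 65 they were 4.69 for Slco1a5 and 4.42 for Rdh16, and without control 64 3.23 for Gm16503. Without the other control, the remaining one has no UMI of the gene, so that the fitted fold is no bound. Gm16503 was not tested without Trim28-KO 73. The 2 Trim28-KO animals were close to each other in these 3 genes, and DESeq2 called none of them (adjusted p = 0.0562 for Slco1a5, 0.105 for Rdh16 and 0.504 for Gm16503). Without Trim28-KO 60 their adjusted p was 0.145, 0.324 and 0.528. Rdh16 was not called without Trim28-KO 73 either (0.0718), and Gm16503 not without control 64 (0.0591), with library totals alone (0.0679), with Slco1c1 left out of the sum (0.0504) or without nuclei of more than 1 endothelial or mural UMI (0.055).

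Several of the increases lay side by side on chromosomes 4, 9 and 13, a grouping noticed after their values were known. In chr4:145000000-148000000, a region of KRAB zinc-finger genes, 9 of 15 genes tested rose and none fell, against the background of 0.536% that rose. They lay between positions 146153456 and 147543500 and were Gm26573, Gm13166, Gm13251, Gm13247, Gm13248, C230088H06Rik, Gm26624, Gm13152 and Gm16503. The count depended on the setting, with 3 of 15 without Trim28-KO 60, 4 of the 14 still tested without Trim28-KO 73, 4 with DESeq2, 6 with library totals alone or without nuclei of more than 1 endothelial or mural UMI, and 7 to 10 in the other alternatives, and none fell in any of them. Gm26573, C230088H06Rik and Gm26624 were called in all 15. C230088H06Rik, a lincRNA, had 10 and 4 UMIs in controls and 114 and 125 in Trim28-KO (3.86 ± 0.30, adjusted p = 0.000177). The lincRNA Gm26624 had 20 and 13 UMIs in controls and 188 and 165 in Trim28-KO (3.20 ± 0.24, adjusted p = 0.000146), and both lincRNAs were separated widely between genotypes. On chromosome 13 Zfp808 had 46 and 38 UMIs in controls and 150 and 134 in Trim28-KO (1.53 ± 0.21, adjusted p = 0.00841). Its neighbour Gm3604, also in the zinc-finger cluster, had 7 and 5 UMIs in controls and 43 and 35 in Trim28-KO (2.47 ± 0.39, adjusted p = 0.0163). Without Trim28-KO 60 the calls of Zfp808 (0.236) and Gm3604 (0.351) were lost, and DESeq2 did not call Gm3604 (0.0779). These 2 were the called genes among 7 tested in chr13:62000000-63000000, and Fbxw16 and Fbxw19 those among 7 tested in chr9:109000000-110000000. Genes of such clusters are near-identical in part, and unique mapping can shift reads among them, so their single values are uncertain.

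The sequences before the starts of these neighbours are shown because the genes rose together. Of the 57 increased genes with a known position, 41 had an entry in the RefSeq promoter table (GRCm38.p6, 250 bases before to 50 after the start), as had 43 of the 58 that fell. Among the 820 pairs of the 41, 2 pairs shared an identical run of at least 18 bases on the same strand. Each sequence below gives the 250 bases before the RefSeq start, read 5′ to 3′ on the strand of the gene, with the shared run in capitals. Fbxw16 lies at chr9:109449141-109449390 and Fbxw19 at chr9:109495855-109496104, both on the minus strand, and their run has 29 bases. Gm3604 lies at chr13:62383175-62383424 on the minus strand and Zfp808 at chr13:62129640-62129889 on the plus strand, and their run has 59 bases.
Fbxw16: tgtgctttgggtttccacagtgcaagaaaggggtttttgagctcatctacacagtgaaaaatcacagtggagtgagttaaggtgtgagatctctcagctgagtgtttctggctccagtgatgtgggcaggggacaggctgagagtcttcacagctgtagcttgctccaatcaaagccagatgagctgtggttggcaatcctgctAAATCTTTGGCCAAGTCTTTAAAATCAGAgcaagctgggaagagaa
Fbxw19: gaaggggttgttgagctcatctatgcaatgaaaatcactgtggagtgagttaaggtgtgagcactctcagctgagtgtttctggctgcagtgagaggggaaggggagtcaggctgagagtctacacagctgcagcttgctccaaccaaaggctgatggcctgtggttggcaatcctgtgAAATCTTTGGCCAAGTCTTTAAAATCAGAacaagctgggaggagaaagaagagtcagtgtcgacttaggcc
Gm3604: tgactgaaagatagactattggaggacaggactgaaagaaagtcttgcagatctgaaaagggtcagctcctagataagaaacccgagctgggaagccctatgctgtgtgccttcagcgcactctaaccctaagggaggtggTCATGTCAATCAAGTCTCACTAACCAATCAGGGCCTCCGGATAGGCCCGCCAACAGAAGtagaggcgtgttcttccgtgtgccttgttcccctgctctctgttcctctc
Zfp808: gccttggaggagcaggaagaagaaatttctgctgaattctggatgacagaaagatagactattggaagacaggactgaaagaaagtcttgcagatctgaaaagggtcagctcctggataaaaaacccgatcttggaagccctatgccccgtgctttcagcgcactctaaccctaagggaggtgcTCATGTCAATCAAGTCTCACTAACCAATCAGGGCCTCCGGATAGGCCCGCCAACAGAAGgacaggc
The run AAATCTTTGGCCAAGTCTTTAAAATCAGA of the Fbxw pair was found, on either strand, in 5 of 27025 promoters of the table (0.0185%). The run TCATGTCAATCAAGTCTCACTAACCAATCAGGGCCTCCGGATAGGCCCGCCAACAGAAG of the zinc-finger pair was found in 2 of them (0.0074%), which are the 2 genes themselves. Such a match describes duplicated sequence, and no binding was measured in these cells.

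Because ERVs are the known targets of TRIM28, the distance from each gene's start to the nearest ERVK copy was taken from the deposited positions. An ERVK copy lay within 2000 bases of the start for 24 of 57 genes that rose (42.1%), for 7 of 58 that fell (12.1%) and for 1492 of 10686 genes that were not called (13.96%). Outside the 3 clusters the share of the genes that rose was 14 of 44 (31.8%), and among protein-coding genes it was 41.3%. The median distance was 2804 bases for genes that rose, 6916 for those that fell and 6489 for the others. Within 10000 bases the shares were 75.4%, 63.8% and 65.8%. No test was made of these shares, since genes of a cluster are not independent.

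**Figure D4:**
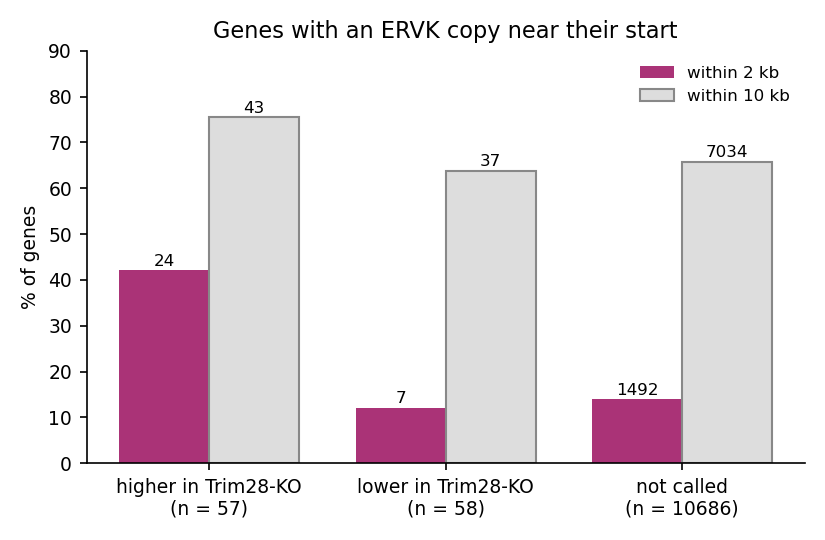
Percentage of genes with an annotated ERVK copy within 2 kb or 10 kb of their start, for genes higher in Trim28-KO astrocytes, genes lower, and genes not called, with the number of genes over each bar. Bars start at 0, and at 2 kb the genes that rose stand at 42.1% against 12.1% and 13.96%.

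Reads of single ERVK copies were available only for the bulk cortex, so the cell type behind them is not known. In this paragraph reads are given for controls 64, 65 and 77 and then for Trim28-KO 60, 73 and 76. An IAPEz-int copy inside Mnd1, on its strand and 6595 bases downstream of its start (chr3:84142796-84149191), had 0, 1 and 0 reads in controls and 80, 45 and 72 in Trim28-KO. An RMER17D2 copy 6108 bases upstream of Fbxw19, on the opposite strand (chr9:109501983-109502389), had no read in controls and 26, 17 and 9 in Trim28-KO. Both copies were read almost only in the Trim28-KO cortex. An RLTR31M copy inside Cml2, on the opposite strand (chr6:85867290-85867693), had 0, 0 and 1 reads in controls and 22, 21 and 14 in Trim28-KO. Cml2, an N-acetyltransferase-like gene, rose in astrocytes from 2 and 2 UMIs to 34 and 29 (3.69 ± 0.52, adjusted p = 0.00863). An MMERVK10C-int copy 6976 bases upstream of Gmnn (chr13:24768899-24769878) had 4, 0 and 0 reads in controls and 19, 25 and 8 in Trim28-KO, all above the highest control. Gmnn, the replication inhibitor geminin, had 1 and 3 UMIs in control astrocytes and 31 and 46 in Trim28-KO (3.96 ± 0.56, adjusted p = 0.0087). An IAPEY3-int copy 6777 bases upstream of Rdh16 (chr10:127792751-127794375) had no read in controls and 8, 7 and 3 in Trim28-KO. The copies near Gmnn and Rdh16 lay on the strand of the gene. For Gm3604 and Zfp808 the copies with the most Trim28-KO reads were RLTR22_Mur copies 168 and 212 bases downstream of their starts. These 2 copies lay on the opposite strand and had at most 2 reads in any animal. In all, 16 genes that rose and 12 that fell had a copy with reads within 10000 bases of the start, where the copy with the most Trim28-KO reads was taken for each gene, a choice that favours Trim28-KO. All Trim28-KO animals were above all controls at 7 of the 16 and at none of the 12, all controls were above at none, and the groups overlapped at the others. Copies near genes that were not called were not tallied, so these counts have no background to be read against. The copy near Csf2ra, a gene that rose, had 25, 10 and 9 reads in controls and 8, 13 and 6 in Trim28-KO. Without Trim28-KO 60 the astrocyte calls of Cml2 (adjusted p = 0.211) and Gmnn (0.0739) were lost, and that of Gmnn also without Trim28-KO 73 (0.0749).

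Genes of astrocyte function were read by lists, each beside the background of 0.536% of genes called in each direction and a median log2 fold change of -0.0022 over all genes tested. Apart from the study's own list, given below, cell adhesion held the most decreases: 5 of 29 genes fell and none rose. The median was -0.23, with 16 lower and 2 higher in both Trim28-KO animals, against 21.2% and 22% of all genes tested. DESeq2 called 2 of the 29. Beside Cdh4, these were Cdh19 (645 and 446 UMIs in controls, 258 and 289 in Trim28-KO, -1.21 ± 0.15, adjusted p = 0.00431), Cadm2 (5692 and 3938, 3196 and 3884, -0.66 ± 0.11, adjusted p = 0.0262), Cadm1 (2145 and 1632, 1417 and 1321, -0.69 ± 0.13, adjusted p = 0.0388) and Lsamp (17701 and 12194, 12444 and 11703, -0.52 ± 0.10, adjusted p = 0.0412). Cadherins and the Cadm and Lsamp proteins hold cells together through their outer domains. On the CPM scale, which accounts for depth, both Trim28-KO animals were below both controls in all of them. Without Trim28-KO 60 the calls of Cdh19 (adjusted p = 0.181), Cadm2 (0.474), Cadm1 (0.351) and Lsamp (0.145) were lost, and without Trim28-KO 73 that of Cadm1 (0.275). DESeq2 did not call Cadm2 (0.0917), Cadm1 (0.105) or Lsamp (0.49). Cadm1 (0.0673) and Lsamp (0.0521) were also lost with library totals alone, and Lsamp with Slco1c1 left out of the sum (0.0504).

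Of 12 glutamate and GABA handling genes, Gabbr2, a subunit of the GABA-B receptor, fell from 277 and 338 CPM to 156 and 180 (-0.87 ± 0.17, adjusted p = 0.0483), with 5 genes of the list at an unadjusted p under 0.05. Slc1a3, the glutamate transporter GLAST, was at 2526 and 2342 CPM in controls and 1668 and 1776 in Trim28-KO (-0.50 ± 0.12, adjusted p = 0.0981), and Glul, glutamine synthetase, at 696 and 660 against 1027 and 1005 CPM (0.58 ± 0.13, adjusted p = 0.0776). Of 17 receptor and calcium signalling genes, Gabbr2 and Adra1a fell. Adra1a, a noradrenaline receptor, had 118 and 93 UMIs in controls and 59 and 56 in Trim28-KO (-1.10 ± 0.20, adjusted p = 0.0316). Neither Gabbr2 nor Adra1a was called by DESeq2 (adjusted p = 0.107 and 0.253), nor without Trim28-KO 60 (0.784 and 0.442) or Trim28-KO 73 (0.249 and 0.397), with library totals alone (0.0841 and 0.0517) or without nuclei of more than 1 endothelial or mural UMI (0.0669 and 0.0733). Gabbr2 was also lost with RLE factors (0.0513).

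Of 16 genes of potassium, water and gap junction transport, Kcnk2 alone passed and the median was 0.086. Aqp4 was at 144 and 117 CPM in controls and 176 and 178 in Trim28-KO (0.43 ± 0.18, adjusted p = 0.379). Of 24 lipid and cholesterol genes, Fabp5, a fatty acid carrier, rose from 78 and 37 UMIs to 152 and 178 (1.33 ± 0.22, adjusted p = 0.0197), a call lost without Trim28-KO 60 (0.246) or 73 (0.145). None of the 24 fell and their median was 0.099. Of 28 astrocyte transcription factors Rora fell and none rose (median -0.12). In both Trim28-KO animals 9 of them were lower and 2 higher, against 21.2% and 22% of all genes tested.

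None of the 26 astrocyte markers outside the rule passed by edgeR or by DESeq2, and 10 had an unadjusted p under 0.05, against 11.9% of all genes tested. Their median was 0.20, and 15 were higher and 2 lower in both Trim28-KO animals, against 22% and 21.2% of all genes tested. Aldoc, a glycolytic enzyme, was at 284 and 227 CPM in controls and 415 and 460 in Trim28-KO (0.77 ± 0.17, adjusted p = 0.0677). Gfap, the filament protein of reactive and fibrous astrocytes, had 14 and 15 UMIs in controls and 36 and 70 in Trim28-KO (1.63 ± 0.39, adjusted p = 0.102). Both Trim28-KO animals were above both controls in these 2 genes, by amounts that did not pass. Of the 13 pan-reactive genes 3 were deep enough to test, and 1 of them rose: Aspg, an asparaginase, went from 8 and 2 UMIs to 40 and 48 (2.91 ± 0.43, adjusted p = 0.0114), with a log2 fold change of 3.89 without control 64, 3.50 without nuclei of more than 1 UMI of another type's sum and 3.66 without those of more than 1 endothelial or mural UMI, and its call was lost without Trim28-KO 60 (0.136) or 73 (0.0718). Cp, the third, had 10 and 10 UMIs in controls and 13 and 17 in Trim28-KO (0.35 ± 0.43, adjusted p = 0.808). Of the 12 A1 genes, 3 were tested and none passed by either tool or at an unadjusted p under 0.05, and none of the 12 A2 genes reached the depth for a test. The 4 tested subpial and fibrous genes and the 3 tested genes of astrocytes of other brain regions held no call by either tool, with 1 and 2 genes at an unadjusted p under 0.05.

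None of 17 tested genes of interferon and nucleic acid sensing passed by edgeR or DESeq2, and 1 had an unadjusted p under 0.05. It was Eif2ak2, the RNA-sensing kinase PKR, at 34.99 and 28.8 CPM in controls and 21.1 and 16.1 in Trim28-KO (-0.79 ± 0.30, adjusted p = 0.34). The RNA sensor gene Ddx58 had 21 and 10 UMIs in controls and 23 and 29 in Trim28-KO (0.54 ± 0.36, adjusted p = 0.613). The list's median was -0.13, and 23 of its 40 genes in the matrices were too sparse to test, so that changes in those were not detectable at this depth. None of 19 heterochromatin and TRIM28 partner genes passed by either tool (1 at an unadjusted p under 0.05, median -0.084), nor of 26 imprinted genes (4, -0.044) or 15 clock genes (4, -0.20). Over all genes tested, 11.9% had an unadjusted p under 0.05.

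The study's own list for astrocytes held 15 genes, and since it was chosen on these samples its counts are not independent evidence. Of these, Pde10a and Rmst rose and Unc13c, Cdh19, Fry, Prex2, Cadm2, Rora and Cadm1 fell, all 15 had an unadjusted p under 0.05, and DESeq2 called 6. The calls of Rmst (adjusted p = 0.419 and 0.262) and Prex2 (0.473 and 0.0707) were lost without Trim28-KO 60 or 73, and that of Rmst also without nuclei of more than 1 endothelial or mural UMI (0.0669). Pde10a, a phosphodiesterase of cyclic nucleotides, was at 144 and 188 CPM in controls and 382 and 623 in Trim28-KO (1.61 ± 0.24, adjusted p = 0.0114), and without animal 73, its highest, the log2 fold change was 1.21 (adjusted p = 0.0748). Fry, which binds microtubules, had 561 and 506 UMIs in controls and 288 and 296 in Trim28-KO (-1.11 ± 0.17, adjusted p = 0.0132). Its call was lost without Trim28-KO 60 (0.301) or Trim28-KO 73 (0.114). Rora, a nuclear receptor, was at 3587 and 4054 CPM in controls and 2534 and 2173 in Trim28-KO (-0.70 ± 0.13, adjusted p = 0.0297), a difference not called by DESeq2 (0.0779), nor with library totals alone (0.0519), nor without Trim28-KO 60 (0.179) or 73 (0.106). Apoe, the main lipid carrier made by astrocytes, was at 1725 and 777 CPM in controls and 2150 and 2232 in Trim28-KO (0.81 ± 0.28, adjusted p = 0.286). Control 65 stood apart from the other 3 animals, and the log2 fold change was 0.35 (adjusted p = 0.141) without it and 1.49 (adjusted p = 1.21e-20) without control 64. Auts2, a chromatin-associated factor of neural development, was at 1757 and 1690 CPM in controls and 1186 and 1205 in Trim28-KO (-0.53 ± 0.12, adjusted p = 0.0853). Auts2 was called in 5 of 15 alternatives, with no filter on low counts (0.00482), without control 64 (0.00737) or control 65 (0.00508), and when nuclei with more than 1 UMI of another type's sum (0.0208) or above 3 times the median UMI count (0.0237) were left out. Apoe was also called with no filter (1.62e-08) and without nuclei of more than 1 UMI of another type's sum (0.0195).

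The same animals gave the other cell types, so their values are set beside those of astrocytes and differences were tested as an interaction of genotype and cell type with the animal as a block. Within cell types, 8.32% of genes were called in excitatory neurons, 2.94% in oligodendrocytes and 0.374% in oligodendrocyte progenitors. In the 2 types outside the Emx1 lineage none passed in edgeR, of 12267 genes in inhibitory neurons and 7415 in microglia. An unadjusted p under 0.05 was found for 1711 (13.9%) and 621 (8.37%) of them. That share was 11.9% in astrocytes, 27.4% in excitatory neurons, 14.3% in oligodendrocytes and 10.2% in oligodendrocyte progenitors. Depth differed as well, with 64821739 UMIs in excitatory neurons, 12432765 in inhibitory neurons, 5006967 in astrocytes and 1665650 in microglia. The part of depth or lineage in these counts was not tested. DESeq2 was not run on types other than astrocytes. The astrocyte response differed from that of excitatory neurons for 0.881% of 15436 genes, with 0.473% more positive and 0.408% more negative in astrocytes. It differed from that of oligodendrocytes for 0.104% of 11528 genes (0.0173% and 0.0867% in those directions) and from that of inhibitory neurons for 0.212% of 12761 (0.094% and 0.118%).

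Unc13c was high in oligodendrocyte progenitors too, at 653 and 765 CPM of that type in controls 64 and 65 and 750 and 614 CPM in Trim28-KO 60 and 73, where the groups overlapped (log2 fold change -0.09, adjusted p = 0.921). In excitatory neurons its log2 fold change was -0.88 (adjusted p = 0.0188) and in inhibitory neurons -0.30 (adjusted p = 0.416). The astrocyte change differed by -5.51 ± 0.28 log2 units from that of excitatory neurons (adjusted p = 4.15e-10) and by -6.17 ± 0.33 from that of inhibitory neurons (adjusted p = 6.72e-07). Against oligodendrocytes, where Unc13c was sparse, the difference of -5.34 ± 1.10 did not pass (adjusted p = 0.117). The difference from oligodendrocyte progenitors was not tested. Cdh4 differed from all 3 types, with -3.33 ± 0.23 against excitatory neurons (adjusted p = 7e-08), -3.32 ± 0.41 against oligodendrocytes (0.00991) and -3.23 ± 0.27 against inhibitory neurons (0.000102). Kcnk2 likewise differed by -2.03, -2.37 and -2.43 (adjusted p = 0.00042, 0.0181 and 0.000342). Gfra1 fell in astrocytes and rose in oligodendrocytes (1.01, adjusted p = 0.0222), a difference of -4.44 ± 0.35 (adjusted p = 0.00019). In excitatory neurons Gfra1 fell by 1.79 on the log2 scale (adjusted p = 0.0165), and the difference of -1.57 from astrocytes did not pass (0.0759).

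**Figure D5:**
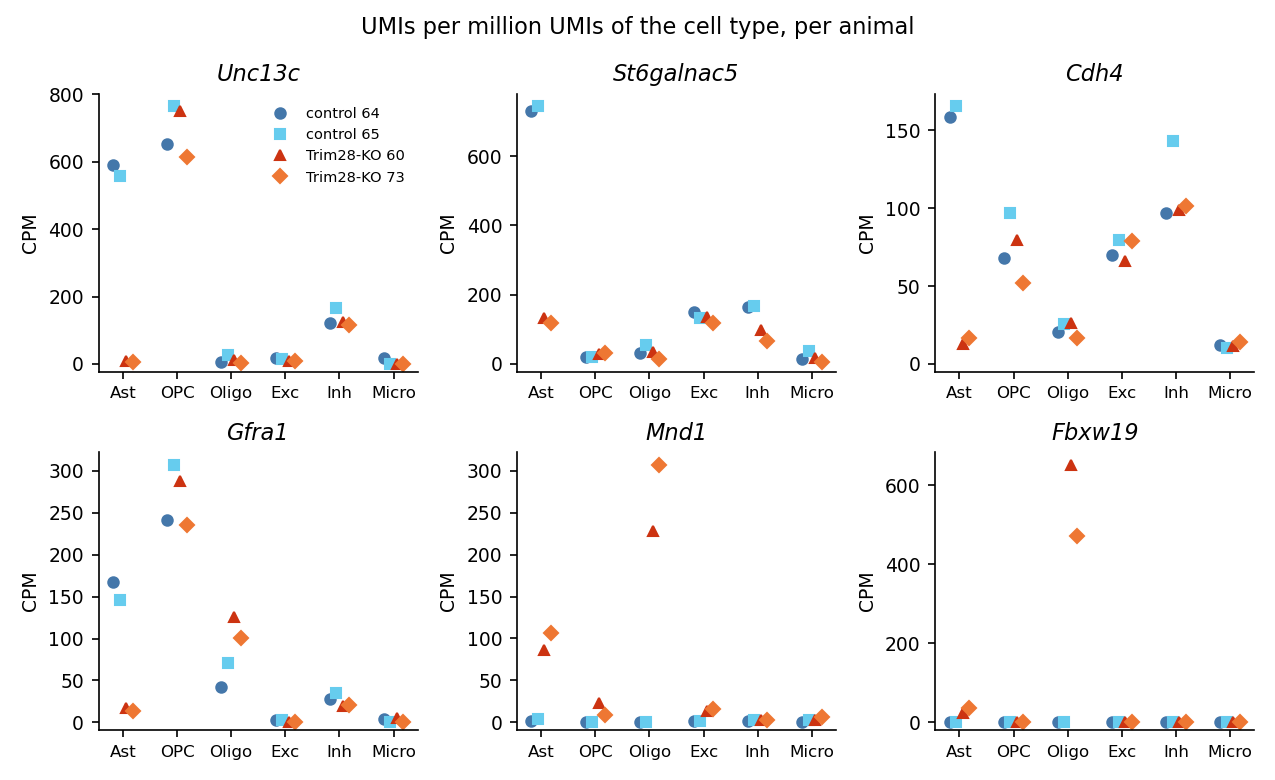
Level in CPM of each cell type (without TMM scaling), 1 point per animal, for 6 genes in astrocytes (Ast), oligodendrocyte progenitors (OPC), oligodendrocytes (Oligo), excitatory neurons (Exc), inhibitory neurons (Inh) and microglia (Micro). Unc13c is low in the Trim28-KO animals in astrocytes and overlaps between genotypes in oligodendrocyte progenitors, while Mnd1 and Fbxw19 are higher in Trim28-KO in both astrocytes and oligodendrocytes.

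Mnd1 rose in more than 1 type. In CPM of each type it was at 1.43 and 4.31 in control astrocytes and 86.1 and 106 in Trim28-KO astrocytes, at 0.516 and 0 against 228 and 307 in oligodendrocytes, and at 2.17 and 1.37 against 14.1 and 16.4 in excitatory neurons. In inhibitory neurons the values were 2.16 and 2.603 in controls and 2.79 and 2.68 in Trim28-KO, and the astrocyte change exceeded that of inhibitory neurons by 4.90 ± 0.71 (adjusted p = 0.00758). It was not shown to differ from that of excitatory neurons (2.21, adjusted p = 0.0799) or oligodendrocytes (-4.10, adjusted p = 0.241). Fbxw19 had 573 and 397 UMIs in Trim28-KO oligodendrocytes 60 and 73 and none in control ones, and Fbxw16 had 323 and 176 and none. Their interaction tests against oligodendrocytes, with no control UMI in either type, gave an adjusted p of 1.

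In the bulk cortex of 3 Trim28-KO and 3 control animals, 1.33% of 16271 genes were called at an adjusted p of 0.05 and a log2 fold change over 0.5 in size, 0.86% higher and 0.467% lower in Trim28-KO. The bulk includes the animals of the nuclei and is therefore given only beside the astrocyte values. Unc13c changed by -0.34 there (adjusted p = 0.351), Cdh4 by -0.22 (0.854) and Map3k5 by -0.012 (0.999). None of these 3 astrocyte decreases was called in whole cortex. St6galnac5 (-0.75, adjusted p = 0.0244), Gfra1 (-1.03, 0.000713), Cdh19 (-1.12, 0.000962) and Celsr1 (-2.31, 0.0465) fell in it. Mnd1 (4.08, adjusted p = 2.75e-06), 2410018L13Rik (4.08, 2.12e-06) and Fabp5 (0.66, 0.0116) rose. In all, 6 of 53 astrocyte decreases tested in bulk (11.3%) and 21 of 48 increases (43.75%) were called there in the same direction. Animals 76 and 77 had no nuclei sequenced and give values that the astrocyte test did not use, although with 1 animal per genotype no test was possible. Of 48 genes that rose in astrocytes and were tested in bulk, 38 were higher in Trim28-KO 76 than in control 77 (79.2%, median log2 ratio 0.52), and of 53 that fell, 40 were lower (75.5%, median -0.25). Over all genes 50.3% were higher in animal 76.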

How the data were processed

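Single-nuclei RNA-seq covered the cortex of 4 animals and bulk RNA-seq the cortex of 6. For the nuclei the authors deposited raw UMI counts per gene and barcode, made with Cell Ranger 3.0 on a pre-mRNA reference of mm10 and limited to barcodes called as nuclei, with 27998 genes. For the bulk cortex the authors deposited raw read counts per gene and per ERVK copy, from uniquely mapped reads aligned with STAR 2.6.0 and counted by strand with featureCounts (Subread 1.6.3). Totals over genes were 25345083, 17206220 and 21332513 reads in controls 64, 65 and 77 and 17042796, 18592289 and 16748967 in Trim28-KO 60, 73 and 76. Another 26 count columns belong to other experiments and were not used. Positions of ERVK copies came from the deposited table, gene positions from GENCODE vM21 on GRCm38 and promoters from RefSeq.

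All deposited barcodes were kept, doublets were not called, and nuclei were classified by the marker sums given above. For each animal, the UMIs of all nuclei of a type were added up, since nuclei are not replicates. Sums were fitted in R 4.3.3 with edgeR 4.0.16 (filterByExpr, TMM, quasi-likelihood test, Benjamini-Hochberg adjustment, threshold 0.05) on 2 against 2 animals, bulk on 3 against 3 with a log2 fold change over 0.5 in addition. The SE of a log2 fold change is its size over the square root of F. Cell types were compared by an interaction with the animal as a block. Where a group had no UMI of a gene, 3 UMIs over that group stood in for it, and sums of 1 to 3 UMIs were given as a ratio with an exact 95% counting interval. Exact tests and intervals used scipy 1.17.1. The scripts were tested on simulated counts.

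Genes named are Trim28, those the study's text names for astrocytes (Apoe, Rora and Auts2), the 12 largest called changes in each direction whose groups did not overlap, and up to 4 genes of smallest p in each of 26 lists. The largest changes were taken by fitted fold change. Genes named outside this rule were chosen after their values were seen. The members, lists and tests were chosen with earlier results of these data known. Alternatives were DESeq2 1.42.0, other scaling, no filter on low counts, other choices of nuclei, and leaving out each animal in turn. The results of some genes and of 1 list are not reported here.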

Additional observations from a re-analysis of the deposited data

Results flagged for a closer look

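The response to Trim28 loss differed between astrocytes and another cell type of the same animals in 25 tests of genes chosen by the rule for named genes, each an interaction in edgeR with p adjusted over all genes. Values are the log2 fold change in astrocytes minus that in the other type. Many of these genes had been chosen for large changes or small p in the same astrocyte counts, which favours such differences. The number 25 is therefore no measure of how often the responses differ. Over all genes tested the share that differed was 0.881% against excitatory neurons, 0.104% against oligodendrocytes and 0.212% against inhibitory neurons.

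Against excitatory neurons the astrocyte change was lower for Unc13c (-5.51, adjusted p = 4.15e-10), Cdh4 (-3.33, 7e-08), St6galnac5 (-2.33, 1.39e-06), Map3k5 (-1.90, 0.000269), Kcnk2 (-2.03, 0.00042), Hopx (-2.49, 0.00781), Per2 (-1.05, 0.0293) and Cry2 (-0.82, 0.0313). It was higher for Slc6a9 (1.69, adjusted p = 0.00502), Aspg (3.18, 0.00594), Ranbp3l (1.71, 0.00781), Adra1b (1.33, 0.0165) and Gm42649 (8.88, 0.0111). The last value is a fitted one that depends on the prior count, since the control astrocytes held no UMI of Gm42649. Hopx, Per2, Cry2, Slc6a9, Ranbp3l and Adra1b are not described above and were not called in astrocytes alone. Per2, a clock gene, had 62 and 60 UMIs in control astrocytes and 112 and 106 in Trim28-KO astrocytes, a log2 fold change of 0.60 (adjusted p = 0.314), against 1.62 in excitatory neurons (adjusted p = 0.0152).

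Against oligodendrocytes the astrocyte change was lower for Gfra1 (-4.44, adjusted p = 0.00019), Cdh4 (-3.32, 0.00991), Tgfa (-4.31, 0.0102) and Kcnk2 (-2.37, 0.0181). Against inhibitory neurons it was lower for Unc13c (-6.17, adjusted p = 6.72e-07), Cdh4 (-3.23, 0.000102), Kcnk2 (-2.43, 0.000342), Gfra1 (-2.73, 0.00117), Map3k5 (-2.03, 0.00394) and St6galnac5 (-1.56, 0.00673), and higher for Mnd1 (4.90, 0.00758) and 2410018L13Rik (5.31, 0.0205).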

How the results depend on the processing

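Against 116 astrocyte genes, DESeq2 called 62 and no filter on low counts 423. Leaving out nuclei with more than 1 UMI of another type's sum gave 358, and leaving out nuclei above 3 times the median UMI count, added after seeing the data, gave 264. Also not planned beforehand were leaving out shared barcodes (114) and leaving out nuclei with more than 1 endothelial or mural UMI (111). Leaving out 1 animal gave 15 to 1008, and then the lone animal of an arm is assumed to vary like the others. Difference counts without 1 animal were 114 to 346 against excitatory neurons (136 with all), 14 to 158 against oligodendrocytes (12, and 19 with RLE factors) and 4 to 164 against inhibitory neurons (27). Bulk cortex gave 216 calls, 546 without a filter and 104 to 344 without 1 animal. The difference in astrocyte share was -0.348 to 1.81 points. The cause of these shifts was not tested. Of 35 named and called genes none reversed. Among uncalled genes the log2 fold change without 1 animal ran from -1.83 to 0.084 for Mal, -1.55 to 0.49 for Cldn11, -0.052 to 0.67 for Id3, -0.16 to 1.38 for H2-D1, -0.35 to 0.12 for Itih3, -0.16 to 0.65 for C1qa, -0.24 to 0.47 for Ggta1, -0.97 to 0.38 for Tnc, -0.86 to 2.30 for Csf1r, -0.54 to 0.94 for Pcdh15 and -0.93 to 0.50 for Tnr. Tnc was also reversed with at least 5 UMIs in the astrocyte sum (0.075), Pcdh15 without nuclei of more than 1 UMI in another sum (-0.13) or above 3 times the median (-0.15), and Tnr with Slco1c1 left out of the sum (0.049) or without nuclei of more than 1 endothelial or mural UMI (0.0084). No paired analysis was possible because the animals of the 2 genotypes share no number.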

Other observations

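The genes of this section lie outside the rule for naming genes and were chosen after their values were seen. They are single genes, and no group of them was fixed or tested. Ldha, lactate dehydrogenase, had 31 and 24 UMIs in controls 64 and 65 and 96 and 108 in Trim28-KO 60 and 73 (log2 fold change 1.67 ± 0.22, adjusted p = 0.00729, edgeR). Pfkp, a phosphofructokinase, had 107 and 105 UMIs in controls and 294 and 251 in Trim28-KO (1.12 ± 0.21, adjusted p = 0.0362). Hspa5, the chaperone BiP of the endoplasmic reticulum, had 89 and 50 UMIs in controls and 195 and 214 in Trim28-KO (1.36 ± 0.19, adjusted p = 0.00863). In all 3 genes both Trim28-KO animals were above both controls. Xbp1, a transcription factor of the unfolded protein response, had 29 and 22 UMIs in controls and 77 in each Trim28-KO animal (1.37 ± 0.24, adjusted p = 0.0273). P4ha1, a collagen prolyl hydroxylase, had 142 and 124 UMIs in controls and 298 and 291 in Trim28-KO (0.91 ± 0.18, adjusted p = 0.0446). Ddit4, which restrains mTOR signalling, had 15 and 14 UMIs in controls and 61 and 49 in Trim28-KO (1.70 ± 0.32, adjusted p = 0.0367). The protease inhibitor gene A2m had 6 and 4 UMIs in controls and 43 and 32 in Trim28-KO (2.67 ± 0.43, adjusted p = 0.0163). None of these 7 calls held in all alternatives. Without Trim28-KO 60 the adjusted p was 0.145 for Ldha, 0.637 for Pfkp, 0.167 for Hspa5, 0.473 for Xbp1, 0.71 for P4ha1, 0.562 for Ddit4 and 0.361 for A2m. Without Trim28-KO 73 all of them but A2m were lost as well, with adjusted p from 0.0748 (Ldha) to 0.255 (P4ha1). DESeq2 did not call Pfkp (0.0516), Xbp1 (0.26), P4ha1 (0.15), Ddit4 (0.249) or A2m (0.064). With library totals alone Pfkp (0.0679), P4ha1 (0.0784) and Ddit4 (0.0517) were lost, and without nuclei of more than 1 endothelial or mural UMI P4ha1 (0.0877) and Ddit4 (0.0544). P4ha1 was also lost with RLE factors (0.0516) and Ddit4 with Slco1c1 left out of the astrocyte sum (0.053).

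Among the decreases, Lgr6, an R-spondin receptor, had 73 and 83 UMIs in controls and 29 and 21 in Trim28-KO (-1.89 ± 0.31, adjusted p = 0.0205). Ror1, a receptor of Wnt ligands, had 37 and 30 UMIs in controls and 6 and 11 in Trim28-KO (-2.19 ± 0.38, adjusted p = 0.0269). Nxn, nucleoredoxin, had 268 and 183 UMIs in controls and 82 and 73 in Trim28-KO (-1.75 ± 0.18, adjusted p = 0.00164). The groups did not overlap in these genes. Peli2, a ubiquitin ligase of the Pellino family, had 224 and 153 UMIs in controls and 61 and 62 in Trim28-KO (-1.83 ± 0.18, adjusted p = 0.0013). Grm8, a metabotropic glutamate receptor, had 63 and 41 UMIs in controls and 22 and 20 in Trim28-KO (-1.51 ± 0.28, adjusted p = 0.0316). Hs3st4, a heparan sulfate sulfotransferase, had 81 and 61 UMIs in controls and 29 and 27 in Trim28-KO (-1.56 ± 0.24, adjusted p = 0.0139). Without Trim28-KO 60 none of these 6 was called, with adjusted p of 0.167 for Lgr6, 0.439 for Ror1, 0.0597 for Nxn, 0.0665 for Peli2, 0.381 for Grm8 and 0.259 for Hs3st4. Without Trim28-KO 73 the calls of Lgr6 (0.155), Ror1 (0.0783), Grm8 (0.313) and Hs3st4 (0.171) were lost, and DESeq2 did not call Ror1 (0.138), Grm8 (0.274) or Hs3st4 (0.0745). Hs3st4 was also lost with at least 5 UMIs in the astrocyte sum (0.0977) and Ror1 without nuclei of more than 1 endothelial or mural UMI (0.0741).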
